A study of Mus musculus with 6 samples.

Results

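The genes described here form the interleukin 2 (IL-2) and common gamma chain receptor axis: the cytokine gene Il2, the receptor chain genes Il2ra, Il2rb, Il2rg, Il7r, Il15ra and Il21r, the kinase gene Jak3 and the transcription factor genes Stat5a and Stat5b. They were chosen by name, 10 in all, and read from array probe sets that carry exactly 1 gene symbol. Of the 10 genes, 8 had such a probe set, among 22180 genes in the whole table. The probe set that names Jak3 also names another gene and was not used, and Il2rg was not analysed here. Each of the 8 had a single probe set, and no filter on low signal was applied.

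Lung CD4 T cells came from wild-type (WT) mice that were sensitised and challenged with house dust mites (HDM), an allergen source that provokes airway inflammation, or with PBS, the saline control. The cells had been sorted from digested lung as positive for CD4 and CD45 and negative for CD11b and F4/80, which mark myeloid cells. Each group held 3 arrays, 1 per sample, and the values are log2 signals made by the authors with RMA. The labels call them biological replicates. Doses, days, strain, age and how many mice made up a sample were not stated. The p-values therefore rest on the spread of these 3 arrays a group, and their number limits the precision.

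IL-2 is made by activated T cells and acts on the same cells and their neighbours. Its receptor is built from an alpha chain (CD25, from Il2ra), a beta chain (CD122, from Il2rb) and the common gamma chain (from Il2rg). The receptors for IL-4, IL-7, IL-9, IL-15 and IL-21 share the gamma chain, each with chains of its own. The gamma chain carries the kinase JAK3, its partner chains carry JAK1, and together they phosphorylate STAT5, which enters the nucleus. In CD4 T cells this axis supports clonal growth, the survival of naive and memory cells through IL-7, and the maintenance of regulatory T cells, which hold CD25 at the surface all the time.

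In HDM samples the alpha chains for IL-2 and IL-15 rose, and 6 of the 8 genes did not pass the test. Il2ra was 2.24-fold higher and Il15ra 1.63-fold higher, with limma at an adjusted p below 0.05. Over all 22180 genes, 2.39% were higher and 1.56% lower by the same rule, 3.95% in all. In bulk samples, more or fewer cells that express a gene and more or less RNA per cell cannot be told apart. The signals of Il2rb and Il2 were higher on average in HDM, and those of Il7r, Il21r, Stat5a and Stat5b were lower, none past the threshold. When the replicate number was entered as a block, 3 genes were higher (Il2ra, Il15ra, Il2rb) and 4 lower (Il7r, Il21r, Stat5a, Stat5b), while 5.95% of all genes were higher and 6.01% lower in that fit. The median log2 difference of the 8 genes was 0.05, against -0.006 over all genes. Their median absolute difference was 0.591, against 0.114, and their median spread within groups was also larger, with an SD of 0.249 against 0.132.

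**Figure D1:**
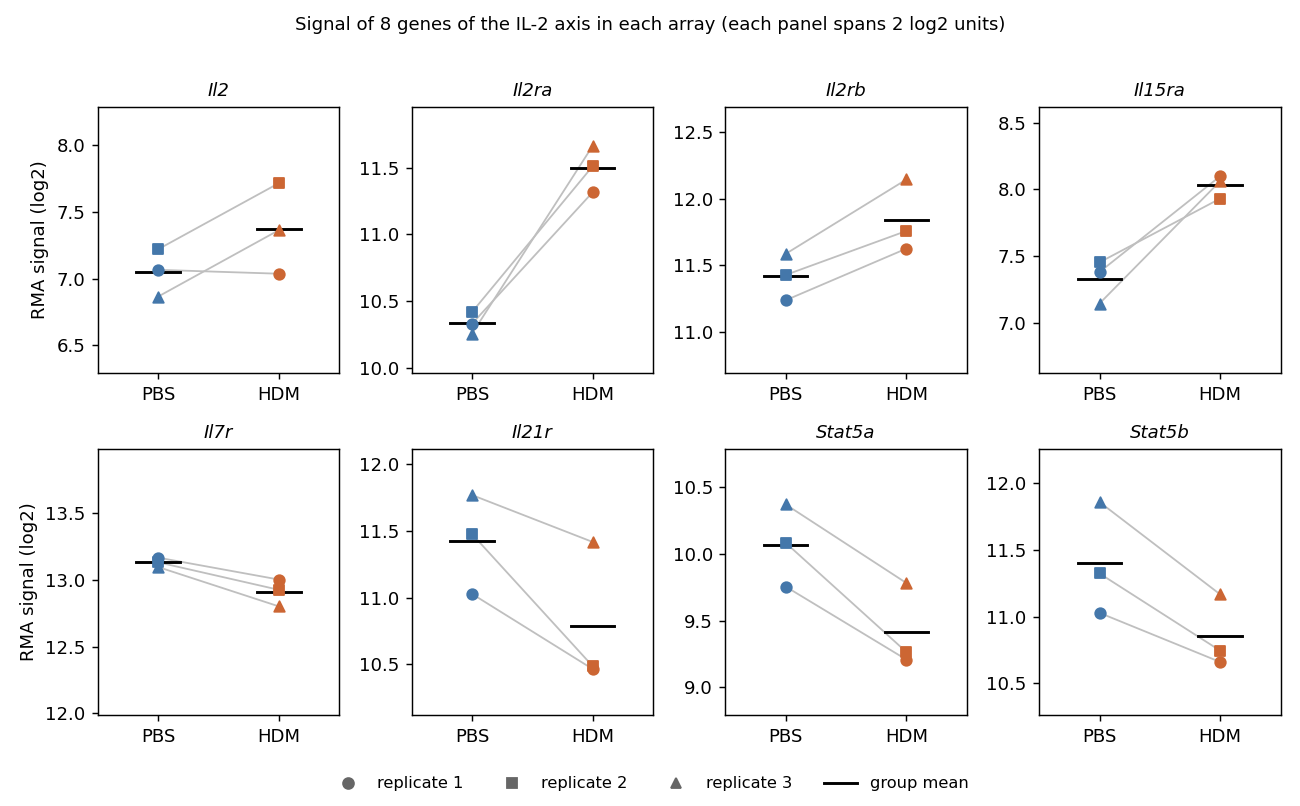
Log2 RMA signal (vertical axis) of the 8 genes in the PBS and HDM arrays (horizontal axis), with markers for the replicate number, grey lines joining arrays of the same number and black bars for group means. Il2ra and Il15ra separate the groups clearly, while Stat5a, Stat5b and Il21r are lower in HDM along each grey line but overlap between the groups.

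Il2ra encodes the alpha chain, which gives the IL-2 receptor its high affinity. Its signal was 10.33, 10.42 and 10.25 in PBS replicates 1, 2 and 3, and 11.31, 11.51 and 11.66 in the HDM replicates. All 3 HDM arrays lay about a log2 unit above all 3 PBS arrays. The difference was 1.16 ± 0.10 (SE, n = 3 per group; limma adjusted p = 0.00245). Between arrays of the same number it was 0.99, 1.09 and 1.41. The call held when each array was left out in turn, with differences from 1.08 to 1.25 and adjusted p of up to 0.0188.

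Il15ra encodes the alpha chain that binds IL-15 and can present it to neighbouring cells. It is dimmer, at 7.38, 7.45 and 7.14 in PBS and 8.10, 7.93 and 8.06 in HDM. The lowest HDM array was above the highest PBS array. The difference was 0.71 ± 0.11 (n = 3 per group, limma adjusted p = 0.0163). The call was lost without PBS replicate 1, HDM replicate 1, PBS replicate 2 or HDM replicate 2, with differences of 0.73, 0.67, 0.77 and 0.75 and adjusted p of up to 0.0771.

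Il2ra and Il15ra are next to each other in the order of protein-coding genes of the RefSeq table (GRCm38.p6). The gene before Il2ra, Rbm17, a splicing factor gene, differed by -0.16 ± 0.11 (adjusted p = 0.501). The gene after Il15ra, Fbh1, a DNA helicase gene, differed by 0.49 ± 0.19 (adjusted p = 0.224, and 0.0098 with the replicate block). Both neighbours were picked for their place and not for their change. Around the 8 genes, 22 measured protein-coding neighbours (the nearest 2 on each side, members left out) gave 2 higher and 2 lower calls. Over all genes, 2.39% were higher and 1.56% lower.

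The sequences just before the gene starts are shown for these 2 genes, whose calls passed, and for Il7r. STAT proteins bind the palindrome TTCNNNGAA, and matches to it are in capitals. The sequences are from RefSeq (build GRCm38.p6) and run 5′ to 3′ on the gene's strand over the 250 bases before a start. Il15ra has 2 starts in that table, at chr2:11705043-11705292 (+) and chr2:11705462-11705711 (+). Il2ra is at chr2:11642542-11642791 (+) and Il7r at chr15:9529877-9530126 (-).
Il2ra: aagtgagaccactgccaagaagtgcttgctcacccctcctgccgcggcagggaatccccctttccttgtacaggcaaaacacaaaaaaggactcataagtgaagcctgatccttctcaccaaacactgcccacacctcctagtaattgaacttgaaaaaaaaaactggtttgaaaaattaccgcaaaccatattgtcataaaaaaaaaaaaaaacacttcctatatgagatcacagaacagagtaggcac
Il15ra first start: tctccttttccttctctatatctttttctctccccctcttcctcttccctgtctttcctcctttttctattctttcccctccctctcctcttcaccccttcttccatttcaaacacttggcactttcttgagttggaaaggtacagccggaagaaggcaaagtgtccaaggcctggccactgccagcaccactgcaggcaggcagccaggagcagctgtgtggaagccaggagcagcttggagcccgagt
Il15ra second start: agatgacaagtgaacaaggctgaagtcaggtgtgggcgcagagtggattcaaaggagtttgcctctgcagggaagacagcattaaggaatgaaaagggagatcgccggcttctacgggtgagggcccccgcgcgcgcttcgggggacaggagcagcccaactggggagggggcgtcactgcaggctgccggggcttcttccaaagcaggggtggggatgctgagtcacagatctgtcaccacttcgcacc
Il7r: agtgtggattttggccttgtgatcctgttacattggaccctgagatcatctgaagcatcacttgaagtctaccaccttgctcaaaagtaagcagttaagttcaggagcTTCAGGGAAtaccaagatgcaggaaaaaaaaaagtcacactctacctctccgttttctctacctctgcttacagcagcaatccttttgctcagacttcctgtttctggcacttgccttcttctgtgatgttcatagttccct
No match was in the Il2ra window or in either Il15ra window. The Il7r window held 1, TTCAGGGAA, beginning 142 bases before the start. Of the 8 genes, 7 had an entry, with 10 windows, and the Il7r window was the only 1 of the 10 with a match. Over all 32851 windows of that length, 7.02% held at least 1 match. A match describes letters in this window and says nothing of sites elsewhere, such as distal enhancers.

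Il2rb encodes the signalling chain shared by the receptors for IL-2 and IL-15. Its signal was 11.24, 11.43 and 11.59 in PBS replicates 1, 2 and 3 and 11.63, 11.76 and 12.14 in HDM. The groups did not overlap, but the lowest HDM array was only just above the highest PBS array. The difference was 0.42 ± 0.14 (limma adjusted p = 0.167). Arrays of the same number differed by 0.39, 0.33 and 0.56, and with the replicate block the adjusted p was 0.00667. Without HDM replicate 3 the difference was 0.27 (adjusted p = 0.205).

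The balance of the receptor chains was compared within each array. The log2 signal of Il2ra minus that of Il2rb lay between -1.33 and -0.91 in PBS and between -0.48 and -0.25 in HDM. Its mean was 0.74 higher in HDM, with the groups apart. Against Il7r, the same measure for Il2ra was 1.39 higher in HDM, and that for Il2rb 0.65 higher. Each of these 3 comparisons gave p = 0.1 by an exact two-sided permutation test, which is the smallest p that 3 against 3 arrays allow. The 2 signals in a ratio come from different probe sets, so only the change of the ratio between groups is read here.

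Il7r encodes the alpha chain of the IL-7 receptor, which keeps naive and memory T cells alive. It was bright in all samples, at 13.17, 13.13 and 13.10 in PBS and 13.00, 12.93 and 12.80 in HDM. All HDM values were below all PBS values, by a small amount. The difference was -0.22 ± 0.06 (limma adjusted p = 0.111), with a 95% confidence interval from -0.37 to -0.07. With the replicate block the adjusted p was 0.0235. Of the 8 genes, 4 had groups that did not overlap (Il2ra, Il15ra, Il2rb and Il7r), as had 22.6% of all genes. Of these, 3 lay higher in HDM, against 10.8% of all genes, and 1 lower, against 11.8%.

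Il21r encodes the receptor chain for IL-21, a cytokine of follicular helper T cells. It measured 11.03, 11.48 and 11.77 in PBS replicates 1, 2 and 3 and 10.46, 10.49 and 11.42 in HDM. HDM replicate 3 stood apart from the other HDM arrays and lay inside the PBS range. The mean difference was -0.64 ± 0.28 (limma adjusted p = 0.285). Arrays of the same number differed by -0.56, -0.99 and -0.35, and with the replicate block the adjusted p was 0.0139. Without HDM replicate 3 the difference was -0.95 (adjusted p = 0.028). In that fit 722 of all genes were lower, against 345 with all arrays. With any other array left out Il21r did not pass (limma adjusted p from 0.233 to 0.588).

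The STAT5 proteins carry the signal of most receptors of this family to the nucleus. Stat5a measured 9.75, 10.08 and 10.37 in PBS and 9.21, 9.26 and 9.78 in HDM. Its groups overlapped through HDM replicate 3, which exceeded PBS replicate 1. The difference was -0.65 ± 0.20 (limma adjusted p = 0.126), and 0.00329 was the adjusted p with the replicate block. Without HDM replicate 3 it was -0.83 (adjusted p = 0.029). With any other array left out Stat5a did not pass (limma adjusted p from 0.118 to 0.349).

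Stat5b measured 11.03, 11.33 and 11.86 in PBS and 10.66, 10.75 and 11.17 in HDM. Here too HDM replicate 3 exceeded the lowest PBS array. The difference was -0.55 ± 0.22 (limma adjusted p = 0.23, and 0.00484 with the replicate block). Without PBS replicate 3 it was -0.32 (adjusted p = 0.392). The differences within pairs were -0.55, -0.82 and -0.59 for Stat5a and -0.37, -0.58 and -0.69 for Stat5b. Both genes lie side by side, and Stat3, the next gene after Stat5a, differed by -0.01 ± 0.15 (adjusted p = 0.976).

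Il2 itself measured 7.07, 7.22 and 6.87 in PBS and 7.04, 7.72 and 7.36 in HDM. HDM replicate 1 lay within the PBS range, and HDM replicate 2 was the highest array. The difference was 0.32 ± 0.18 (limma adjusted p = 0.413), with a 95% confidence interval from -0.09 to 0.73. Neither fit called it (adjusted p = 0.156 with the replicate block). Leaving out HDM replicate 2 brought the difference to 0.15, and leaving out HDM replicate 1 brought it to 0.49. Il21, which follows Il2 in the order of protein-coding genes, was called, with the values given below.

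**Figure D2:**
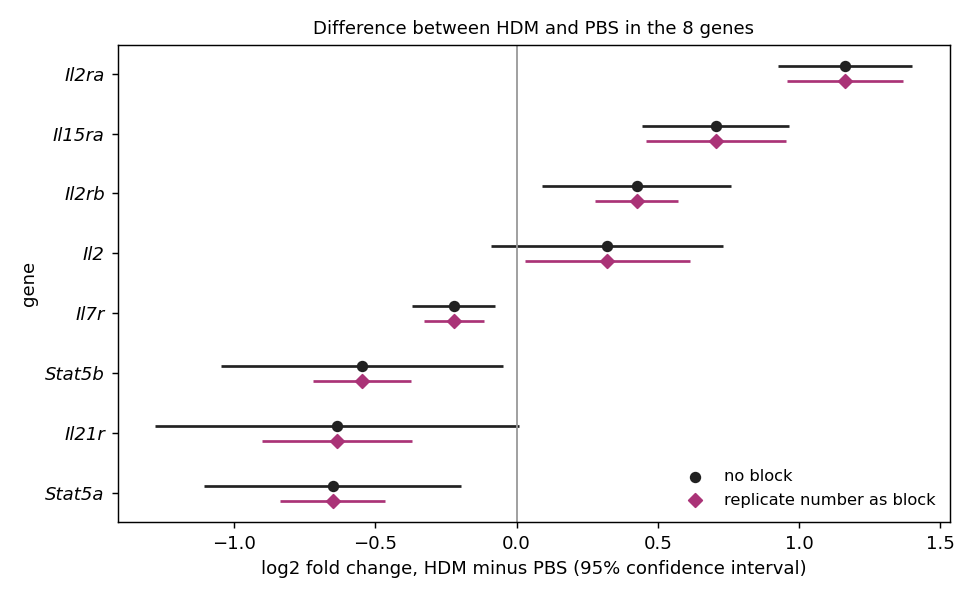
Log2 fold change, HDM minus PBS (horizontal axis), of the 8 genes (vertical axis) with 95% confidence intervals, without a block (black circles) and with the replicate number as a block (purple diamonds). The block leaves each estimate in place and narrows the intervals of Stat5a, Stat5b, Il21r and Il2rb, whose SEs go from 0.20, 0.22, 0.28 and 0.14 to 0.08, 0.07, 0.11 and 0.06.

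In 4 of the 8 genes, Il2rb, Il21r, Stat5a and Stat5b, the array numbered 3 was the highest of its group in both PBS and HDM. PBS replicate 3 was above the PBS mean by 0.17, 0.34, 0.30 and 0.46 in these genes. HDM replicate 3 was above the HDM mean by 0.30, 0.63, 0.36 and 0.31. PBS replicate 1 deviated from the PBS mean by similar amounts the other way, -0.179, -0.397, -0.315 and -0.376. In 7 of the 8 genes, all but Il2, the difference had the same sign in all 3 pairs. How often these patterns occur over all genes was not counted. What a replicate number marks, such as a day or a cage, was not stated.

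The other genes of the family moved in both directions. Of 13 further ligand, receptor, kinase and STAT genes, 12 were measured, 3 rose, 2 fell and 7 did not pass (median difference 0.03). Over all genes, 2.39% were higher and 1.56% lower. The 3 raised genes were Il4, the Th2 cytokine (1.62 ± 0.35, limma adjusted p = 0.0489), Il9r, the receptor chain for the mast cell and Th2 cytokine IL-9 (1.43 ± 0.24, adjusted p = 0.0208), and Il21 (1.38 ± 0.27, adjusted p = 0.033). Il9r measured 8.43, 8.68 and 8.03 in PBS and 10.12, 10.03 and 9.29 in HDM, so that every HDM array exceeded every PBS array. Il9, the ligand of that receptor, differed by 0.03 ± 0.11 (adjusted p = 0.941). Its signal was dim, at 5.23 in PBS and 5.26 in HDM, below the array medians of 6.57 to 6.64. Without detection calls, whether Il9 was expressed is unknown.

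Il4ra, the chain shared by the receptors for IL-4 and IL-13, fell by 0.77 on the log2 scale (SE 0.16, limma adjusted p = 0.0421). It measured 11.85, 11.96 and 12.02 in PBS and 10.99, 10.96 and 11.59 in HDM. The groups did not overlap, and HDM replicate 3 was nearest to the PBS arrays. Il4ra is the protein-coding gene just before Il21r, whose signal was also lower on average in HDM. Jak1, the kinase on the partner chains, also fell, by 0.29 (SE 0.06, adjusted p = 0.0299), from a PBS mean of 12.61 to an HDM mean of 12.31. It was named after its values were seen. Il15 differed by 0.57 ± 0.19 (adjusted p = 0.156, and 0.0287 with the replicate block), and Stat6, which carries the IL-4 signal, by 0.003 ± 0.07 (adjusted p = 0.989). All 5 calls were lost without any one of PBS replicates 1 and 2 and HDM replicates 1 and 2, and those of Il4, Il21 and Il4ra also without PBS replicate 3. The highest adjusted p values were 0.179 (Il4), 0.0977 (Il9r), 0.122 (Il21), 0.172 (Il4ra) and 0.14 (Jak1). Other settings ended some of these calls too. That of Il4 was lost under 6 of 8 (adjusted p from 0.0501 to 0.0817). That of Jak1 was lost with repeated quantile normalization (0.0651), without an intensity trend (0.0898) and over all probe sets (0.0521). That of Il4ra was lost without an intensity trend (0.0501) and over all probe sets (0.0716), and that of Il21 over all probe sets (0.0578).

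**Figure D3:**
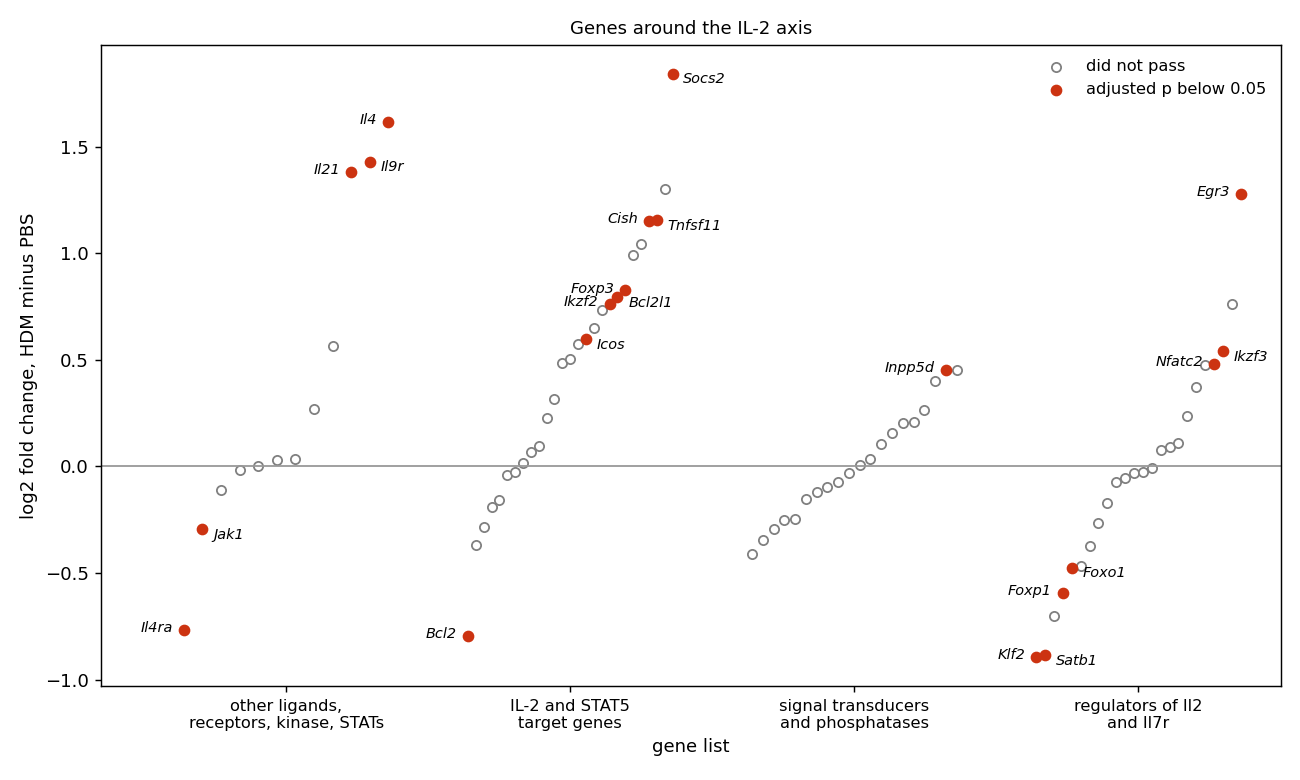
Log2 fold change, HDM minus PBS (vertical axis), of every measured gene in 4 lists around the IL-2 axis (horizontal axis, genes ordered by value within a list). Filled red points passed at an adjusted p below 0.05 and are named, 3 up and 2 down, 7 up and 1 down, 1 up and 0 down, and 3 up and 4 down from left to right.

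Among genes known as targets of IL-2 and STAT5, the inducible suppressors Socs2 and Cish rose most firmly. Of 29 such genes 27 were measured, 7 rose, 1 fell and 19 did not pass, and 15 were higher and 3 lower with the replicate block. Over all genes, 2.39% were higher and 1.56% lower, and 5.95% and 6.01% with the block. The median difference was 0.50, against -0.006 over all genes. The list was not divided by whether IL-2 raises or lowers a gene. Without HDM replicate 1 and without HDM replicate 2, the 7 raised genes became 4 and 3. Over all genes, the 531 raised ones became 202 and 181. Several of these genes respond to other signals as well, the T cell receptor among them.

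Socs2, a suppressor of cytokine signalling that STAT5 induces, measured 8.84, 8.80 and 8.43 in PBS and 10.52, 10.45 and 10.63 in HDM. The HDM arrays lay close together, far above the PBS arrays. It rose 3.59-fold (1.84 ± 0.12, limma adjusted p = 0.000917). With its probe sets averaged the difference was 1.44 (adjusted p = 0.00265). Cish, a related feedback gene, measured 9.61, 9.66 and 9.46 in PBS and 10.79, 10.70 and 10.70 in HDM. It rose 2.22-fold (1.15 ± 0.09, adjusted p = 0.00135). Both calls held with each array left out in turn, with adjusted p of up to 0.0116 and 0.0139. Socs1 and Socs3, other suppressors of the family, differed by -0.04 ± 0.12 (adjusted p = 0.915) and -0.16 ± 0.15 (adjusted p = 0.687), with 95% confidence intervals from -0.33 to 0.25 and from -0.51 to 0.20. They were named after their values were seen.

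**Figure D4:**
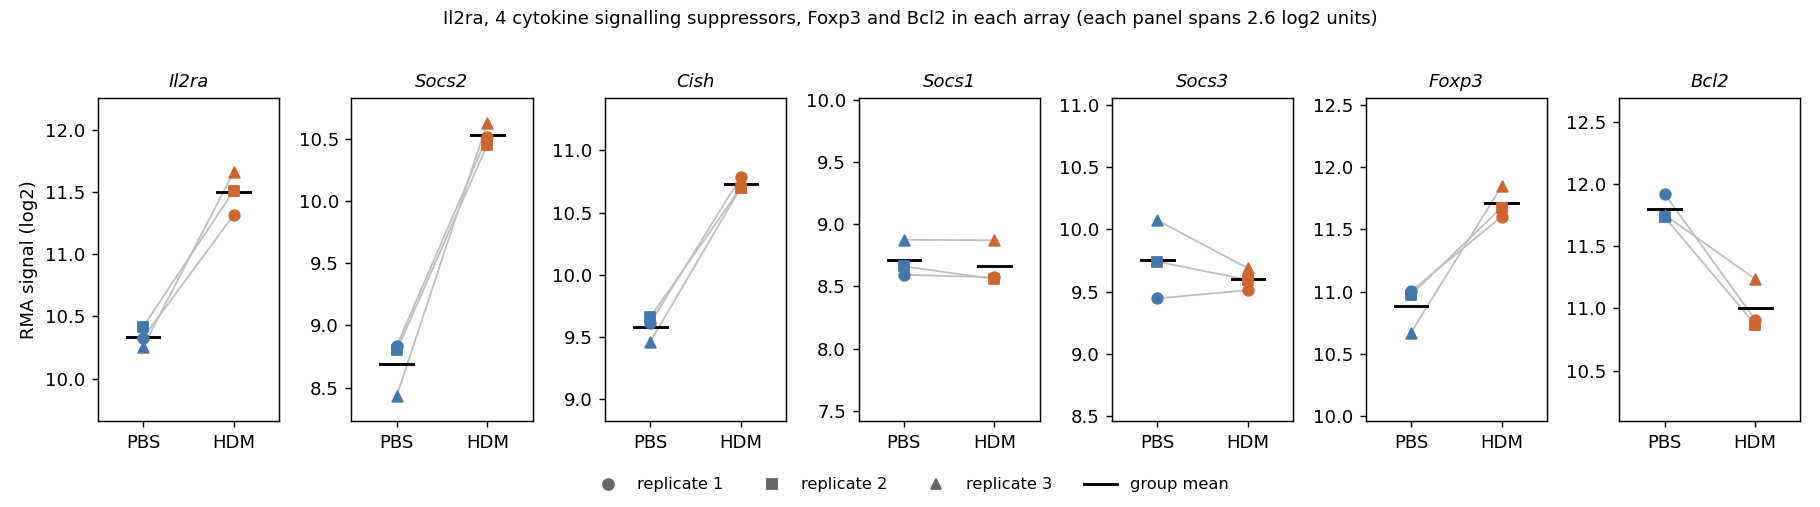
Log2 RMA signal (vertical axis) of Il2ra, of the suppressors Socs2, Cish, Socs1 and Socs3, and of Foxp3 and Bcl2 in the PBS and HDM arrays (horizontal axis), marked as for the 8 genes. Il2ra, Socs2, Cish and Foxp3 are higher in every HDM array, Bcl2 is lower in every one, and Socs1 and Socs3 overlap.

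The survival genes among these targets went opposite ways. Bcl2, which protects resting T cells downstream of IL-7, fell by 0.80 (SE 0.11, limma adjusted p = 0.0099), from 11.92, 11.73 and 11.75 in PBS to 10.91, 10.87 and 11.24 in HDM. Bcl2l1, which encodes the related protector BCL-XL, rose (0.79 ± 0.17, adjusted p = 0.0443), from 7.61, 7.77 and 7.73 to 8.33, 8.26 and 8.90. In both genes every HDM array lay on one side of every PBS array. Mcl1, another protector, differed by -0.28 ± 0.06 (adjusted p = 0.054, and 0.0193 with the replicate block). The 3 genes were named after their values were seen. Leaving out any one of PBS replicates 1 and 2 and HDM replicates 1 and 2 ended both calls, and leaving out PBS replicate 3 also ended that of Bcl2l1 (highest adjusted p 0.0535 for Bcl2 and 0.154 for Bcl2l1). The Bcl2l1 call also ended with repeated quantile normalization (0.0512) and over all probe sets (0.0741). With its probe sets averaged, Bcl2 differed by -0.61 (limma adjusted p = 0.0472).

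Tnfsf11, the cytokine RANKL, rose (1.15 ± 0.17, limma adjusted p = 0.0112), and so did Icos, a costimulatory receptor that was named after its values were seen (0.60 ± 0.08, adjusted p = 0.0092). The Tnfsf11 call ended without HDM replicate 1 (adjusted p = 0.0532) or 2 (0.0621), and that of Icos without HDM replicate 2 (0.0525). Gzmb, the granule protease granzyme B, differed by 1.30 ± 0.37 but ranged from 8.04 to 9.08 in PBS and from 8.98 to 10.35 in HDM, and it did not pass (adjusted p = 0.112, and 0.00181 with the replicate block).

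Of 4 markers of regulatory T cells, which carry CD25 at rest, 2 rose in HDM as Il2ra did. Foxp3, their lineage factor, measured 11.00, 10.97 and 10.67 in PBS and 11.60, 11.68 and 11.85 in HDM (0.83 ± 0.11, limma adjusted p = 0.00851). Ikzf2 was the other, and 2.39% of all genes were higher by the same rule. Ikzf4 (0.42 ± 0.10, adjusted p = 0.0729, and 0.0332 with the replicate block) and Tnfrsf18 (0.07 ± 0.14, adjusted p = 0.863) did not pass, and the mean signal of the 4 ranged from 10.26 to 10.34 in PBS and from 10.73 to 11.00 in HDM. The dimmest, Ikzf4, averaged 8.59 in PBS. Foxp3 and Ikzf2 are also in the list of IL-2 and STAT5 targets. Foxp3 passed with each array left out, whereas Ikzf2, of the 6 arrays, passed only when HDM replicate 3 was left out, and did not pass over all probe sets (adjusted p = 0.0503). Their part in the Il2ra difference was not tested.

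Other cells of the lung also express these receptors, among them myeloid cells (Il15ra) and natural killer cells (Il2rb). T cell markers were bright, with Cd4 at 12.52 in PBS and 12.67 in HDM and Cd3e at 12.82 and 12.92, where the array medians were 6.57 to 6.64. Of 8 macrophage and monocyte markers 1 rose, Chil3, and their mean signal ranged from 8.18 to 8.37 in PBS and from 8.46 to 8.87 in HDM. All 5 measured natural killer markers did not pass, with means from 6.12 to 6.46 and from 5.94 to 6.43. Of the 5 dendritic cell markers measured, Itgax rose and Ccr7, which naive T cells also express, fell. RNA of lung epithelium was seen in both groups, with Scgb1a1 at 11.64 in PBS and 11.84 in HDM. Of the 4 epithelial markers Cdh1 rose, and of 6 endothelial and stromal markers Pecam1 fell. None of the markers of CD8 T cells (2), type 2 innate lymphoid cells (3), B and plasma cells (5), mast cells and basophils (5) or eosinophils and neutrophils (6) passed without the block. Over all genes, 2.39% were higher and 1.56% lower in that fit. The replicate block changed several of these marker calls, and with it 5.95% of all genes were higher and 6.01% lower. With it, 4 of the 6 endothelial and stromal markers were lower in HDM, Pecam1, Cdh5, Kdr and Pdgfra (block adjusted p from 0.00513 to 0.0235). The SEs given next for these markers are those of the blocked fit. All 3 type 2 innate lymphoid markers were called, Arg1 (1.56 ± 0.33, block adjusted p = 0.0252) and Rora (0.41 ± 0.07, 0.0138) higher and Kit (-0.47 ± 0.12, 0.0455) lower. In all 3 of these genes the HDM and PBS values overlapped. Arg1 differed unevenly, by 2.07, 2.25 and 0.36 in the pairs numbered 1, 2 and 3. Jchain, a plasma cell gene, was 1.41 ± 0.15 higher (block adjusted p = 0.00235), and so was Csf1r, a macrophage receptor gene (0.52 ± 0.13, 0.0488). The T cell genes Cd3g and Cd5 were higher by 0.19 each (block adjusted p = 0.0308 and 0.0458). The epithelial gene Sftpc was lower, at -0.40 ± 0.08 (block adjusted p = 0.0177, and 0.777 without the block). The part of these cells in the differences was not tested.

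Signal transducers and phosphatases further down the pathway were described in the same way. Of 28 signal transducers and phosphatases 20 were measured, of which 1 rose, 0 fell and 19 did not pass, with a median difference of -0.01. Over all genes, 2.39% were higher and 1.56% lower. The raised gene was Inpp5d, which encodes the inositol phosphatase SHIP1 (0.45 ± 0.08, limma adjusted p = 0.022). The call ended without any one of PBS replicates 1 and 2 and HDM replicates 1 and 2 (highest adjusted p 0.107). With the replicate block 3 were higher (Inpp5d, Akt1 and Pias3) and 3 lower (Sos1, Pik3cd and Pias1), where 5.95% and 6.01% of all genes were. These 5 further genes were named after their values were seen. An unadjusted p below 0.05 was found for 9 of the 20, against 3958 of all 22180 genes. A filter on dim genes at the median gave 3 higher and 1 lower. With that filter, 628 of the 11090 genes tested were higher and 557 lower.

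Among 25 regulators of Il2 and Il7r transcription, 24 were measured, 3 rose, 4 fell and 17 did not pass (median difference -0.03). With the replicate block 6 were higher and 6 lower. Over all genes, 2.39% were higher and 1.56% lower, and 5.95% and 6.01% with the block. The genes added by the block were Nfatc1, Egr2 and Gfi1 (higher) and Crem and Zeb1 (lower), named after their values were seen. Egr3, an early gene of T cell receptor signalling, rose (1.28 ± 0.22, limma adjusted p = 0.0198), from 7.25, 7.82 and 7.94 in PBS to 8.93, 9.28 and 8.65 in HDM. The other raised genes were Nfatc2, a calcium-dependent activator of Il2 (0.48 ± 0.09), and Ikzf3, an Ikaros family factor that represses Il2 (0.54 ± 0.09).

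Klf2, a factor of quiescent T cells, fell by 0.89 (SE 0.16, limma adjusted p = 0.0227), and Satb1, a chromatin organiser, fell by 0.89 (SE 0.12, adjusted p = 0.0102). Foxp1, a quiescence factor that opposes Il7r transcription, fell by 0.59 (SE 0.09, adjusted p = 0.0134). Foxo1, which drives Il7r, fell by 0.47 (SE 0.08, adjusted p = 0.0183), from 11.57, 11.57 and 11.59 in PBS to 11.02, 11.05 and 11.23 in HDM. Nfatc2, Ikzf3 and Foxo1 were named after their values were seen. Foxo1 has more than 1 probe set, and the call was lost when these were averaged (adjusted p = 0.34). Without PBS replicate 1, HDM replicate 1 or PBS replicate 2, the calls of Egr3, Nfatc2, Ikzf3, Klf2, Satb1, Foxp1 and Foxo1 were lost (highest adjusted p 0.155). Without HDM replicate 2 those of Egr3, Nfatc2, Klf2 and Foxo1 were lost, and that of Nfatc2 also without PBS replicate 3. The Nfatc2 call also ended with centring on array medians (0.0524) and over all probe sets (0.0522).

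The genes whose pattern over the 6 arrays was most like that of Il2ra were found by the root-mean-square difference of gene-centred log2 values, leaving out predicted genes, small RNAs and receptor segments. They were Slc22a15, a solute carrier (0.045), Hilpda, a lipid droplet protein (0.062), Cxcl3, a chemokine (0.079), and Nt5e, the ectonucleotidase CD73 (0.094). Slc22a15 measured 8.07, 8.22 and 8.05 in PBS and 9.16, 9.22 and 9.48 in HDM, which follows Il2ra array by array. The nearest to Il2 were Psg25 (0.075), Serf1 (0.087), Txndc17 (0.088) and Cts8 (0.097). None of these 4 passed (limma adjusted p from 0.175 to 0.543). Psg25, Cts8 and Cxcl3 were dim, below the array medians of 6.57 to 6.64. They ranged from 3.53 to 4.25, from 4.19 to 4.85 and from 4.67 to 6.08. The likeness is a description over 6 arrays, out of 22180 genes searched.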

How the data were processed

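The deposited table holds log2 signals per probe set, which the authors made with RMA, per the submitters' processing notes, which give no version. RMA in general corrects background, normalizes by quantiles and summarises probes; it equalises the arrays' distributions, so values are relative and a change in total RNA per cell cannot be seen. Detection calls, scan dates and a genome build were not found in the labels or the table, and no batch could be tested.

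Probe sets were named through GEO's platform annotation: of 33960, 23521 had 1 symbol, 1814 several and 8625 none. The brightest probe set by mean over the 6 arrays stood for a gene (1082 genes had more than 1). HDM minus PBS was tested over 22180 genes with limma 3.58.1 in R 4.3.3 (lmFit, eBayes with an intensity trend, two-sided, Benjamini-Hochberg, threshold 0.05), after a test on simulated data. SEs are limma's moderated ones, from the fit without the block unless stated, and adjusted p-values are from limma throughout. Any 2 arrays shared at most 5 identical values.

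Deviations from group means of same-numbered arrays correlated across genes at 0.43, 0.17 and 0.53 for numbers 1, 2 and 3, above the minimum of 0.1, so blocked values or counts are given where they change a call. Between arrays of unlike number the correlations ran from -0.5 to 0.25. The highest of these, PBS replicate 1 with HDM replicate 2 (0.246), exceeded that of the arrays numbered 2 (0.172). The data therefore do not set the arrays numbered 2 apart as a pair. The pairing rests on the data, not on the labels. The genes and lists were chosen with earlier results of these data known. All 8 measured genes were named, with up to 4 called genes of each list with the largest change, and the 4 genes nearest to Il2ra and to Il2. Alternatives were 2 filters on dim genes, 2 normalizations, 2 variance models, probe sets averaged or all kept, the replicate block and left-out arrays.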

Additional observations from a re-analysis of the deposited data

How the results depend on the processing

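Il2ra was called under all 16 alternatives. The count of called genes among the 8 stayed at 2 higher and 0 lower under 8 alternatives of filter, normalization, variance model and probe sets. With the replicate block it was 3 higher and 4 lower, and without both arrays numbered 3 it was 3 and 3. With 1 array left out it ranged from 1 to 2 higher and from 0 to 2 lower. Over all genes, 531 were higher and 345 lower. These became 352 and 191 over all probe sets, 1319 and 1334 with the replicate block, and 1250 and 1326 without both arrays numbered 3. With 1 array left out they ranged from 177 to 845 and from 41 to 722. A filter on dim genes at the median gave 557 lower genes, with 11090 genes tested. The replicate block changed no other call of the 8 genes than those given for Il2rb, Il7r, Il21r, Stat5a and Stat5b. No value changed sign past the threshold under any alternative. The cause of these shifts was not tested. Without detection calls, how far dim genes such as Il2 stood above background is unknown.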

Other observations

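Several IL-2 and STAT5 target genes were called with the replicate block and not without it. Tnfrsf4, the costimulatory receptor OX40, differed by 0.73 ± 0.21 (limma adjusted p = 0.113, and 0.0013 with the block). It was higher in HDM in all 3 pairs, by 0.63, 0.70 and 0.87. Tnfrsf9, the receptor 4-1BB, differed by 1.05 ± 0.43 (adjusted p = 0.25, and 0.01 with the block). Ctla4, the inhibitory receptor of regulatory and activated T cells, differed by 0.63, 0.49 and 1.85 in the pairs numbered 1, 2 and 3 (adjusted p = 0.0895, and 0.0375 with the block). Prdm1, which encodes the repressor Blimp-1, differed by 0.55, 0.35 and 1.05 (adjusted p = 0.0713, and 0.022 with the block). Pim2, a survival kinase, was lower in HDM by similar amounts in all pairs, with differences of -0.37, -0.36 and -0.38 (adjusted p = 0.055, and 0.0201 with the block). These genes were picked after their values were seen.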
